A study of Mus musculus with 16 samples.

Results

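The endoplasmic reticulum (ER) stress response and the integrated stress response were followed through 33 human transcripts in tumours of H295R, a steroid-producing human adrenocortical carcinoma line. The members were chosen by their RefSeq identifiers, and 32 of the 33 are carried by the array. PSAT1 (NM_021154), an enzyme of serine synthesis, is the listed transcript without a probe here. All 32 passed the filter on dim probes, which kept 20216 of 29094 identifiers, and 30 of the 32 passed background on each of the 15 arrays. EDEM1 and SLC7A5 were not well above background on control replicate 4 and were so on the other 14 arrays. The filter compares groups, but no member entered through 1 group alone.

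Tumours of H295R cells inoculated into SCID mice were treated by mouth for 28 days with corn oil (control), with mitotane, with 9-cis retinoic acid (9-cisRA), or with both agents (combined). All groups carried the same xenografted line, so each value comes from 1 cell line in an immunodeficient host. The labels give no dose, age or mouse sub-strain. Total RNA was labelled with Cy3 and read on 1-colour Agilent human arrays, with 3 arrays for combined treatment and 4 for every other group. Combined replicate 3 was read only from the authors' deposited value table. The replicate number is also the slide, each of 4 slides holds 1 array of each group, and 9-cisRA lies at position 4 of every slide, so that position and 9-cisRA cannot be told apart. The design text speaks of 43 mice and the labels do not tie an array to a mouse, so the spread behind each p-value is that between arrays and may in part be technical.

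When unfolded proteins build up in the ER, 3 membrane sensors signal to the nucleus. ERN1 (IRE1) splices the XBP1 message, EIF2AK3 (PERK) phosphorylates the translation factor eIF2alpha, and ATF6 is cut into an active transcription factor. Phosphorylated eIF2alpha lowers general translation while ATF4 is translated more, and ATF4 then drives DDIT3 (CHOP), ATF3, TRIB3, CHAC1 and genes of amino acid supply. Other eIF2alpha kinases respond to amino acid lack, haem lack or viral RNA and feed the same ATF4 arm, which is the integrated stress response. Steroid-producing cells hold abundant smooth ER, and mitotane, an adrenolytic drug given for adrenocortical carcinoma, is known from cultured H295R cells as an agent that raises ER stress markers. Retinoids such as 9-cisRA act through the nuclear receptors RAR and RXR. Arrays read transcript abundance, and neither XBP1 splicing, ATF4 translation nor phosphorylation was measured.

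One array stood apart. On control replicate 4 the 75th percentile of the intensity was 224.2, against 551.5 to 1061 on the other 14 arrays, and 24 of the 32 members took their highest (6) or lowest (18) value of the 15 arrays there. That share is 75% of the members and 72.2% of all tested transcripts. Differences of the members from control are therefore given with and without this array. Combined replicate 4 had the fewest probes well above background, 57.9%. The files name probes by RefSeq identifier only, so gene names other than those of the members were paired with identifiers from general knowledge and not checked against a table. Of 13 adrenocortical markers, 11 were well above background on every array, MC2R (NM_000529) on 12 arrays and CYP11B1 (NM_000497) on 1. Their log2 summed level lay between 7.50 and 8.30 in control, 7.78 and 8.40 under mitotane, 7.98 and 8.27 under 9-cisRA and 8.01 and 8.59 under combined treatment. The log2 summed level of 7 fibroblast markers was 4.73 to 4.92 in control, 3.35 to 6.42 under mitotane, 5.32 to 7.01 under 9-cisRA and 5.72 to 5.99 under combined treatment. LUM (NM_002345) was well above background on 1 array and COL3A1 (NM_000090) on 4. Of the macrophage markers, PTPRC (NM_002838) and CSF1R (NM_005211) passed background on all 15 arrays and CD68 (NM_001251) on 5. Their log2 summed level was 5.16 for control replicate 4, and elsewhere it ran from -1.53 to -0.48. The high level came from the PTPRC probe alone, which reached 5.15. CSF1R read at most -0.64 on any array and CD68 at most -4.98. Of 5 endothelial markers CDH5 was well above background on all 15 arrays, KDR on 13, VWF on 9, and PECAM1 (NM_000442) and TEK (NM_000459) on none. In the erythroid list ALAS2 passed background on 14 arrays and HBB (NM_000518) on none. The host is a mouse and the array human, so host RNA could be read only through cross-hybridisation to human probes. The part of other cell types in the results below was not tested, and in a bulk tumour fewer cells of a type and less RNA per cell cannot be told apart.

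**Figure D1:**
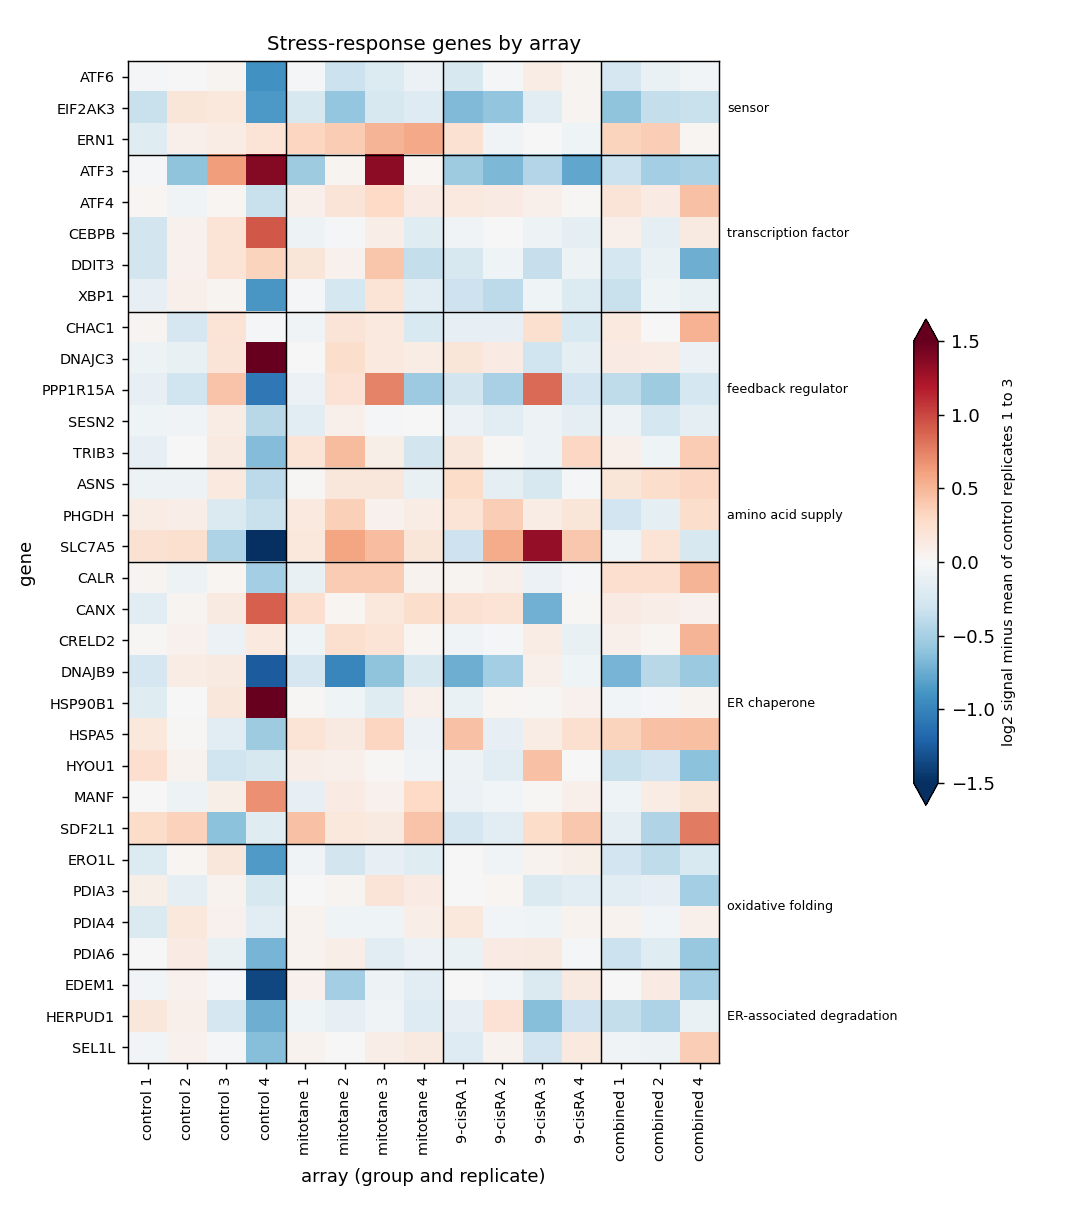
Heat map of 32 stress-response genes (rows, grouped by role) on 15 arrays (columns, grouped by treatment). Colour gives the log2 signal minus the mean of control replicates 1 to 3, red above and blue below, with the scale ending at 1.5 in both directions. The control replicate 4 column is the darkest, with DNAJC3 and HSP90B1 above and SLC7A5 and EDEM1 below.

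Under mitotane no stress-response transcript passed the adjusted test, and their median lay close to control. The median log2 change over the 32 members was 0.09, the same to 2 decimals as the 0.09 of all 20216 transcripts tested, with 23 members above 0 and 9 below. Both medians were 0.08 without control replicate 4. The extremes were SLC7A5 at 0.74 and HSP90B1 at -0.43. In limma's moderated test with Benjamini-Hochberg adjustment, 0 of 32 members and 0% of all transcripts had an adjusted p under 0.05. At an unadjusted p under 0.05, 1 member (ERN1) was higher, against 5.12% of all transcripts, and 0 were lower, against 0.92%. Without control replicate 4 the counts were 1 higher (ERN1; 5.37% of all transcripts) and 1 lower (DNAJB9; 2.31%). Both directions together came to 4 without control replicate 1 and to 2 without control replicate 2 or mitotane replicate 1. The 4 mitotane arrays lay wholly above the 4 control arrays for 2 members, ATF4 and ERN1, where 3.56% of all transcripts did so, and wholly below for 0 (0.688% of all). Beside control replicates 1 to 3 the same 2 members lay wholly above (7.1% of all) and 0 below (3.43%).

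Under 9-cisRA alone the median of the members was likewise near control. The median log2 change was 0.04 for the members and 0.03 for all transcripts, with 17 members above 0 and 15 below. These medians were -0.03 and 0.02 without control replicate 4. The extremes were SLC7A5 at 0.89 and ATF3 at -0.95. The adjusted test called 0 of 32 members and 0% of all transcripts. One member, SLC7A5, was higher at an unadjusted p under 0.05 (2.16% of all transcripts) and 1, ATF3, was lower (1.35%). Without control replicate 4 both counts were 0, beside 2.14% of all transcripts higher and 2.21% lower. Both directions together came to 0 also without control replicate 3 or 9-cisRA replicate 4, to 1 without 9-cisRA replicate 2 or 3, and to 5 without control replicate 1. No member separated the 9-cisRA arrays from the control arrays in either direction, where 1.67% of all transcripts lay wholly above and 0.727% wholly below. Beside control replicates 1 to 3, 0 lay wholly above (3.75% of all) and 1, SESN2, wholly below (3.16%).

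Combined treatment gave the most unadjusted differences, in the members and in the array as a whole. The ER chaperones HSPA5 and CALR, the transcription factor ATF4 and the amino acid enzyme ASNS were higher at an unadjusted p under 0.05, 4 members beside 11.6% of all transcripts. DDIT3 was lower, 1 member beside 2.21%. Both directions together take in 15.6% of the members and 13.8% of all transcripts, a share near the background. The adjusted test called 0 of 32 and 0% of all transcripts, and the smallest adjusted p among members was 0.247 (HSPA5). The median log2 change was -0.01 for the members and 0.09 for all transcripts, with 16 members on each side of 0, and without control replicate 4 the medians were -0.02 and 0.08. The combined arrays lay wholly above control for HSPA5, CALR, ATF4 and ASNS, 4 members beside 12.7% of all transcripts, and wholly below for 0, beside 2.52%. Beside control replicates 1 to 3 the same 4 lay wholly above (20.2% of all transcripts) and 5 lay wholly below, namely ATF6, DNAJB9, PDIA6, ERO1L and SESN2 (8.87%). Without control replicate 4, 3 members were higher (HSPA5, CALR and ATF4; 13.2% of all transcripts) and 5 were lower (EIF2AK3, DNAJB9, HYOU1, PDIA6 and ERO1L; 5.13%). Left out singly, other arrays gave 1 member in all without combined replicate 4, and 3 without combined replicate 1, mitotane replicate 1 or 2, or 9-cisRA replicate 2 or 4. With slide as a replicate block 3 members (HSPA5, CALR and ATF4) kept an unadjusted p under 0.05. A fit with array weights, which gave control replicate 2 a weight of 8.81 and control replicate 4 a weight of 0.0351, called 13 members at an adjusted p under 0.05, 5 higher and 8 lower, beside 28.6% of all transcripts.

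The intervals bounded most changes. For mitotane, 9-cisRA and combined against control, the 95% interval of the log2 change lay within 2-fold either way for 28, 29 and 28 of the 32 members. It lay within 1.5-fold for 17, 15 and 11. The median standard error of a member was 0.19 for each single agent and 0.20 for the combination, and 0.13 and 0.14 without control replicate 4. For the other members a change of that size was not excluded.

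**Figure D2:**
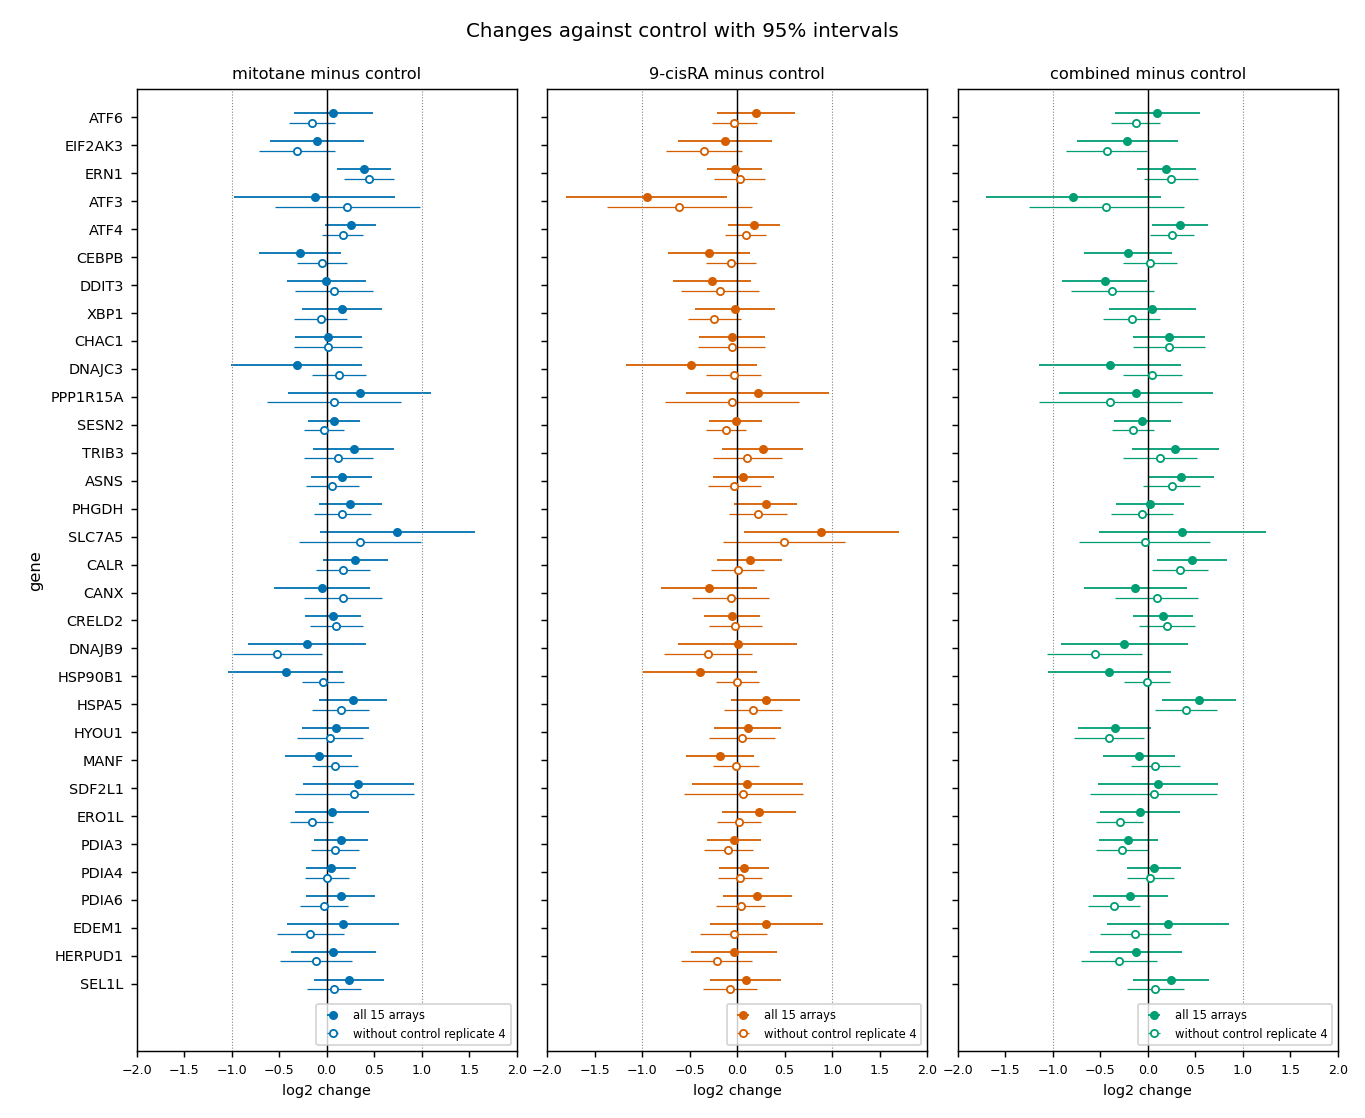
Log2 change against control for 32 genes under mitotane (left), 9-cisRA (middle) and combined treatment (right). Points are fitted changes and bars are 95% intervals, filled over all 15 arrays and open without control replicate 4, and dotted lines mark 2-fold either way. Most intervals cross 0, and HSPA5, CALR and ATF4 under combined treatment and ERN1 under mitotane are among the few that do not with either set of arrays.

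Of the 3 sensors, ERN1 (NM_001433) differed most from control under mitotane. Its log2 signal relative to the 75th percentile was -3.47, -3.22, -3.18 and -3.09 on control replicates 1 to 4 and -2.97, -2.91, -2.78 and -2.73 on the mitotane arrays. The 9-cisRA arrays read -3.07, -3.35, -3.30 and -3.36, and combined replicates 1, 2 and 4 read -2.96, -2.92 and -3.26. The mitotane arrays were all above the highest control array, whereas the 9-cisRA arrays overlapped the control range. The log2 change under mitotane was 0.39 ± 0.13 (SE), a fold of 1.31, with a 95% interval of 0.11 to 0.68 and a limma adjusted p of 0.713. It was 0.44 without control replicate 4, and positive on each of the 4 slides (0.31 to 0.50). In the combined group the log2 change was 0.19 ± 0.15 and under 9-cisRA -0.03 ± 0.13, and they were 0.25 and 0.03 without control replicate 4. In the deposited value table combined replicate 3 read 0.26, beside 0.13, 0.17 and -0.17 on the other combined arrays. The control arrays read -0.34, -0.11, -0.06 and -0.06 there.

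Over all arrays the other sensors overlapped the control range in every treated group. EIF2AK3 (NM_004836) ran from -2.55 to -1.51 in control, -2.27 to -1.88 under mitotane, -2.35 to -1.65 under 9-cisRA and -2.29 to -2.02 under combined treatment. Its log2 changes were -0.10, -0.13 and -0.21 in that order, and -0.32, -0.35 and -0.43 without control replicate 4, which held its lowest value. ATF6 (NM_007348) read -0.02 on control replicate 4 and 0.58 to 1.00 on the other 14 arrays. Its log2 changes of 0.07, 0.20 and 0.10 became -0.16, -0.03 and -0.13 without that array, so their sign rested on it. The combined arrays of ATF6 ran from 0.65 to 0.86, below control replicates 1 to 3 at 0.87 to 0.93, and overlapped control through control replicate 4 alone.

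ATF4 (NM_001675), the transcription factor of the integrated stress response, had the tightest values among the factors. Control replicates 1 to 4 read 4.44, 4.36, 4.44 and 4.08, mitotane 4.49, 4.61, 4.71 and 4.54, 9-cisRA 4.56, 4.54, 4.49 and 4.43, and combined 4.61, 4.54 and 4.86. Mitotane and combined arrays lay above every control array, and 9-cisRA overlapped control at its lowest value. The log2 change was 0.34 ± 0.14 under combined treatment (95% interval 0.05 to 0.63, adjusted p = 0.309), 0.25 ± 0.13 under mitotane (adjusted p = 0.713) and 0.18 ± 0.13 under 9-cisRA (adjusted p = 0.744). The same changes were 0.25, 0.17 and 0.09 without control replicate 4. In the deposited value table, where each probe is centred, combined replicate 3 read 0.11 and control replicates 1 to 3 read -0.06, -0.15 and -0.07.

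DDIT3 (NM_004083), which encodes CHOP, the factor linked to cell death after long ER stress, had its lowest mean in the combined group. Its log2 signal was -1.14, -0.81, -0.66 and -0.54 on the control arrays, -0.69, -0.81, -0.45 and -1.22 under mitotane, -1.11, -0.93, -1.21 and -0.95 under 9-cisRA, and -1.14, -0.97 and -1.61 under combined treatment. Every group overlapped control, and combined replicate 4 held the lowest value. The log2 change under combined treatment was -0.45 ± 0.21 (95% interval -0.90 to -0.0042, adjusted p = 0.359) and -0.37 without control replicate 4. Mitotane gave -0.0049 ± 0.19, or 0.08 without that array, and 9-cisRA -0.26 ± 0.19, or -0.18. Slide by slide, combined minus control was 0.01, -0.17 and -1.07 on slides 1, 2 and 4, so 1 slide carried most of the mean. In the value table combined replicate 3 read -0.32, against -0.15, 0.17 and 0.32 on control replicates 1 to 3.

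ATF3 (NM_001674), an early stress-induced repressor, varied more within control and mitotane than between them. The control arrays read -2.24, -2.82, -1.59 and -0.84 and the mitotane arrays -2.76, -2.17, -0.88 and -2.18. The 9-cisRA arrays read -2.75, -2.89, -2.66 and -2.99, and the combined arrays -2.54, -2.73 and -2.69. Both groups given 9-cisRA were thus low and tight, with an SD of 0.15 and 0.10 against 0.85 in control and 0.79 under mitotane, and both lay at the level of control replicate 2. The log2 change was -0.95 ± 0.40 under 9-cisRA (adjusted p = 0.744) and -0.78 ± 0.43 under combined treatment (adjusted p = 0.433). They were -0.61 and -0.44 without control replicate 4, the highest control array. Combined replicate 3 in the value table read 0.58, above the 0.05, -0.13 and -0.09 of the other combined arrays. The mitotane change was -0.13 ± 0.40, and 0.22 without control replicate 4.

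XBP1 (NM_005080), the factor that ERN1 activates by splicing, was measured as total transcript. It read 2.62, 2.81, 2.78 and 1.87 on the control arrays, 2.72, 2.48, 2.94 and 2.57 under mitotane, 2.42, 2.35, 2.67 and 2.54 under 9-cisRA, and 2.40, 2.67 and 2.64 under combined treatment. All treated arrays but mitotane replicate 3 lay inside the control range, whose low end was control replicate 4. The log2 changes were 0.16, -0.02 and 0.05 for mitotane, 9-cisRA and combined, and -0.06, -0.24 and -0.17 without that array. CEBPB (NM_005194), a partner of the CHOP and ATF4 factors, was 3.07 on control replicate 4 and 1.87 to 2.35 elsewhere, with log2 changes of -0.28, -0.29 and -0.21 that became -0.05, -0.06 and 0.02 without it.

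Genes that restrain the response showed small differences. TRIB3 (NM_021158), a pseudokinase that binds ATF4, read 1.57, 1.69, 1.83 and 1.05 in control, 1.90, 2.18, 1.79 and 1.43 under mitotane, 1.87, 1.72, 1.63 and 2.01 under 9-cisRA, and 1.77, 1.63 and 2.08 under combined treatment. The groups overlapped, and the log2 changes of 0.29 ± 0.20, 0.27 ± 0.20 and 0.29 ± 0.21 were 0.12, 0.11 and 0.13 without control replicate 4. CHAC1 (NM_024111), which degrades glutathione and is a late ATF4 target, had log2 changes of 0.02, -0.05 and 0.23, and 0.01, -0.06 and 0.23 without that array. A second CHAC1 probe was above background on 1 array and was not used. SESN2 (NM_031459), a leucine sensor that restrains mTORC1, had the smallest spread of the members, a within-group SD of 0.09 without control replicate 4, and log2 changes of 0.08, -0.01 and -0.05, and -0.03, -0.12 and -0.16 without that array.

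DNAJC3 (NM_006260), an inhibitor of eIF2alpha kinases, was 3.46 on control replicate 4 against 1.38 to 1.94 on the other 14 arrays. Its log2 changes of -0.31, -0.48 and -0.39 became 0.13, -0.04 and 0.05 without that array. PPP1R15A (NM_014330), or GADD34, brings a phosphatase to eIF2alpha and so ends the translational block. It ran from -2.95 to -1.45 in control, -2.43 to -1.13 under mitotane, -2.36 to -1.03 under 9-cisRA and -2.41 to -2.14 under combined treatment, with log2 changes of 0.35 ± 0.35, 0.22 ± 0.35 and -0.12 ± 0.38, and 0.08, -0.05 and -0.39 without control replicate 4.

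Amino acid supply genes are targets of ATF4. ASNS (NM_001673), asparagine synthetase, read 2.41, 2.40, 2.64 and 2.09 in control, 2.50, 2.65, 2.65 and 2.38 under mitotane, 2.76, 2.35, 2.24 and 2.47 under 9-cisRA, and 2.66, 2.75 and 2.80 under combined treatment. The combined arrays lay above every control and mitotane array, narrowly so beside control replicate 3 and mitotane replicates 2 and 3. Such a separation from mitotane held for 1322 of all 20216 transcripts. The log2 change was 0.35 ± 0.16 under combined treatment (95% interval 0.0030 to 0.70, adjusted p = 0.359), 0.16 ± 0.15 under mitotane and 0.07 ± 0.15 under 9-cisRA. These were 0.25, 0.06 and -0.03 without control replicate 4, and combined replicate 3 in the value table read 0.01, inside the -0.11 to 0.13 of control replicates 1 to 3.

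PHGDH (NM_006623), the first enzyme of serine synthesis, read 2.61, 2.59, 2.28 and 2.16 in control, 2.63, 2.84, 2.56 and 2.60 under mitotane, 2.70, 2.87, 2.61 and 2.67 under 9-cisRA, and 2.20, 2.35 and 2.75 under combined treatment. The 9-cisRA arrays overlapped control only at the edge, and the combined arrays spread across the control range. The log2 changes were 0.25 ± 0.15, 0.30 ± 0.15 (adjusted p = 0.744) and 0.03 ± 0.17, and 0.17, 0.22 and -0.06 without control replicate 4. SLC7A5 (NM_003486), the large neutral amino acid transporter LAT1, read -3.24, -3.23, -3.93 and -5.05 in control, -3.31, -2.87, -3.00 and -3.28 under mitotane, -3.77, -2.91, -2.15 and -3.07 under 9-cisRA, and -3.53, -3.25 and -3.70 under combined treatment. Its spread was wide in control and under 9-cisRA, with an SD of 0.86 and 0.67. The log2 change was 0.89 ± 0.38 under 9-cisRA (fold 1.85, adjusted p = 0.744) and 0.74 ± 0.38 under mitotane (adjusted p = 0.713). Leaving out control replicate 4, where the probe was not well above background, made these 0.49 and 0.35. Combined treatment gave 0.36 ± 0.41, and -0.03 without that array.

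Among the 9 ER chaperones, HSPA5 (NM_005347) gave the largest positive change of the combined group. It encodes BiP, the chaperone that holds the sensors inactive and is the classical readout of ER stress. Its log2 signal was 1.15, 1.02, 0.83 and 0.47 on the control arrays, 1.20, 1.14, 1.33 and 0.92 under mitotane, 1.44, 0.88, 1.12 and 1.24 under 9-cisRA, and 1.34, 1.44 and 1.45 under combined treatment. The 3 combined arrays were above every control array and every mitotane array, narrowly so beside mitotane replicate 3. Combined lay wholly above mitotane for 1322 of all 20216 transcripts. The log2 change was 0.54 ± 0.18, a fold of 1.45, with a 95% interval of 0.15 to 0.93 and an adjusted p of 0.247. It was 0.41 ± 0.15 without control replicate 4, and positive on slides 1, 2 and 4 (0.18, 0.42 and 0.98). In the value table combined replicate 3 read -0.04, below the other combined arrays (0.16, 0.26 and 0.28) and inside the range of control replicates 1 to 3 (0.02, -0.13 and -0.31). The single agents gave 0.28 ± 0.17 (mitotane) and 0.30 ± 0.17 (9-cisRA), both overlapping control, and 0.15 and 0.17 without control replicate 4.

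CALR (NM_004343), calreticulin, a lectin chaperone of the ER lumen, was also highest in the combined group. The control arrays read 5.89, 5.77, 5.88 and 5.33, mitotane 5.73, 6.23, 6.22 and 5.90, 9-cisRA 5.89, 5.92, 5.76 and 5.83, and combined 6.10, 6.10 and 6.36. Combined arrays lay above every control and every 9-cisRA array, while mitotane replicates 1 and 4 were level with control. Combined lay wholly above 9-cisRA for 2354 of all 20216 transcripts. The log2 change was 0.47 ± 0.17 (fold 1.38, adjusted p = 0.271) under combined treatment, 0.30 ± 0.16 under mitotane and 0.13 ± 0.16 under 9-cisRA. Less control replicate 4 they were 0.34, 0.17 and 0.0043, and combined replicate 3 in the value table read 0.28 beside 0.16, 0.17 and 0.43.

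HYOU1 (NM_006389), a nucleotide exchange factor for BiP, was lowest in the combined group. It read -2.17, -2.37, -2.72 and -2.66 in control, -2.32, -2.34, -2.39 and -2.47 under mitotane, -2.50, -2.59, -1.98 and -2.41 under 9-cisRA, and -2.75, -2.70 and -3.03 under combined treatment. The combined arrays were below every mitotane and 9-cisRA array and overlapped the lower control arrays. Combined lay wholly below mitotane for 910 and wholly below 9-cisRA for 952 of all 20216 transcripts. The log2 change against control was -0.35 ± 0.18 (adjusted p = 0.403), and -0.41 without control replicate 4, while mitotane gave 0.10 ± 0.16 and 9-cisRA 0.11 ± 0.16, or 0.04 and 0.05 without that array. Combined replicate 3 in the value table read -0.12, above the -0.29, -0.24 and -0.57 of the other combined arrays.

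DNAJB9 (NM_012328), the BiP co-chaperone ERdj4 and an XBP1 target, read 1.83, 2.20, 2.22 and 0.84 in control, 1.83, 1.11, 1.48 and 1.85 under mitotane, 1.35, 1.57, 2.16 and 2.02 under 9-cisRA, and 1.39, 1.67 and 1.53 under combined treatment. Control replicate 4 held the lowest value of the 15 and control replicate 3 the highest. The log2 changes were -0.20 ± 0.29, 0.01 ± 0.29 and -0.24 ± 0.31, and -0.52, -0.31 and -0.56 without control replicate 4. Control replicates 1 to 3 span 1.83 to 2.22, and mitotane replicates 1 and 4 and 9-cisRA replicates 3 and 4 reached that range.

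For the probes used of the other 5 chaperones, the log2 changes lay between -0.07 and 0.29 once control replicate 4 was set aside. HSP90B1 (NM_003299), or GRP94, read 7.54 there and 5.79 to 6.13 on the other 14 arrays, and its log2 changes of -0.43, -0.39 and -0.40 became -0.04, 0.00 and -0.01. Its second probe gave 0.08, -0.05 and -0.24, and -0.41 under combined treatment without that array, so the 2 probes of this gene disagree. CANX (NM_001746), the membrane-bound partner of calreticulin, had log2 changes of -0.05, -0.29 and -0.13, which were 0.17, -0.07 and 0.10 without control replicate 4. Its second probe gave 0.14, 0.32 and 0.18 over all arrays, opposite in sign to the first. MANF (NM_006010), a secreted protein of the ER, had -0.08, -0.18 and -0.09, and 0.09, -0.01 and 0.08 without control replicate 4. CRELD2 (NM_024324) gave 0.07, -0.06 and 0.17, and 0.10, -0.02 and 0.20 without that array. SDF2L1 (NM_022044), part of an ER chaperone complex, gave 0.33, 0.11 and 0.11 with an SD of up to 0.64 within a group, and 0.29, 0.06 and 0.06 without that array.

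In oxidative folding, the protein disulphide isomerases form and shuffle disulphide bonds and ERO1L re-oxidises them. PDIA3 (NM_005313), the isomerase that works with calreticulin, read 4.11, 3.88, 4.08 and 3.78 in control, 4.03, 4.07, 4.22 and 4.15 under mitotane, 4.02, 4.05, 3.81 and 3.86 under 9-cisRA, and 3.86, 3.91 and 3.51 under combined treatment. PDIA6 (NM_005742), which also regulates ERN1, read 0.68, 0.81, 0.57 and -0.01 in control, 0.74, 0.79, 0.52 and 0.59 under mitotane, 0.59, 0.81, 0.83 and 0.67 under 9-cisRA, and 0.37, 0.50 and 0.12 under combined treatment. For both genes the combined arrays lay below every mitotane array (as for 910 of all 20216 transcripts). For PDIA6 they also lay below every 9-cisRA array (as for 952 of all). PDIA6 overlapped control through control replicate 4 alone and PDIA3 through control replicates 2 and 4. Against control the combined log2 change was -0.20 ± 0.14 for PDIA3 and -0.18 ± 0.18 for PDIA6, and -0.27 and -0.36 without control replicate 4. Mitotane gave 0.15 ± 0.13 for PDIA3 and 0.15 ± 0.17 for PDIA6, and 9-cisRA -0.03 ± 0.13 and 0.21 ± 0.17. Mitotane gave 0.09 and -0.03 without control replicate 4, and 9-cisRA -0.09 and 0.04, so the sign of PDIA6 under mitotane rested on that array. A second, dimmer PDIA3 probe gave 0.10 under combined treatment, and -0.10 without that array. In the value table combined replicate 3 read -0.46 for PDIA3, beside -0.13, -0.07 and -0.47 on the other combined arrays. For PDIA6 it read -0.13, beside -0.25, -0.12 and -0.50. PDIA4 (NM_004911) had log2 changes of 0.05, 0.07 and 0.07, and 0.0054, 0.03 and 0.03 without control replicate 4. ERO1L (NM_014584) had 0.05, 0.23 and -0.08, which were -0.16, 0.02 and -0.30 without control replicate 4.

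For the probes used, the 3 genes of ER-associated degradation, which returns misfolded proteins to the cytosol, overlapped control in every treated group. HERPUD1 (NM_014685), a membrane protein of the degradation complex and a target of ATF4 and ATF6, read 5.64, 5.54, 5.22 and 4.73 in control, 5.40, 5.35, 5.41 and 5.27 under mitotane, 5.34, 5.68, 4.83 and 5.16 under 9-cisRA, and 5.11, 5.01 and 5.37 under combined treatment. All treated arrays but 9-cisRA replicate 2 lay inside the control range, and mitotane was the tightest with an SD of 0.06. The log2 changes were 0.07 ± 0.21, -0.03 ± 0.21 and -0.12 ± 0.23, and -0.11, -0.22 and -0.30 without control replicate 4. SEL1L (NM_005065), the scaffold of the ubiquitin ligase HRD1, gave 0.24, 0.09 and 0.24, and 0.07, -0.07 and 0.08 without that array. Another SEL1L probe, above background on all 15 arrays, gave 0.11, -0.06 and 0.09 over all arrays. The dimmest SEL1L probe, above background on 11, gave -1.77, -2.07 and -1.35, and -0.19 under combined treatment without control replicate 4. Over all arrays the dimmest probe thus departed from the others. Those gave 0.08 and 0.06 under combined treatment without control replicate 4. EDEM1 (NM_014674), which hands misfolded glycoproteins to the complex, gave 0.17, 0.31 and 0.21, and -0.17, -0.03 and -0.13 without control replicate 4.

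**Figure D3:**
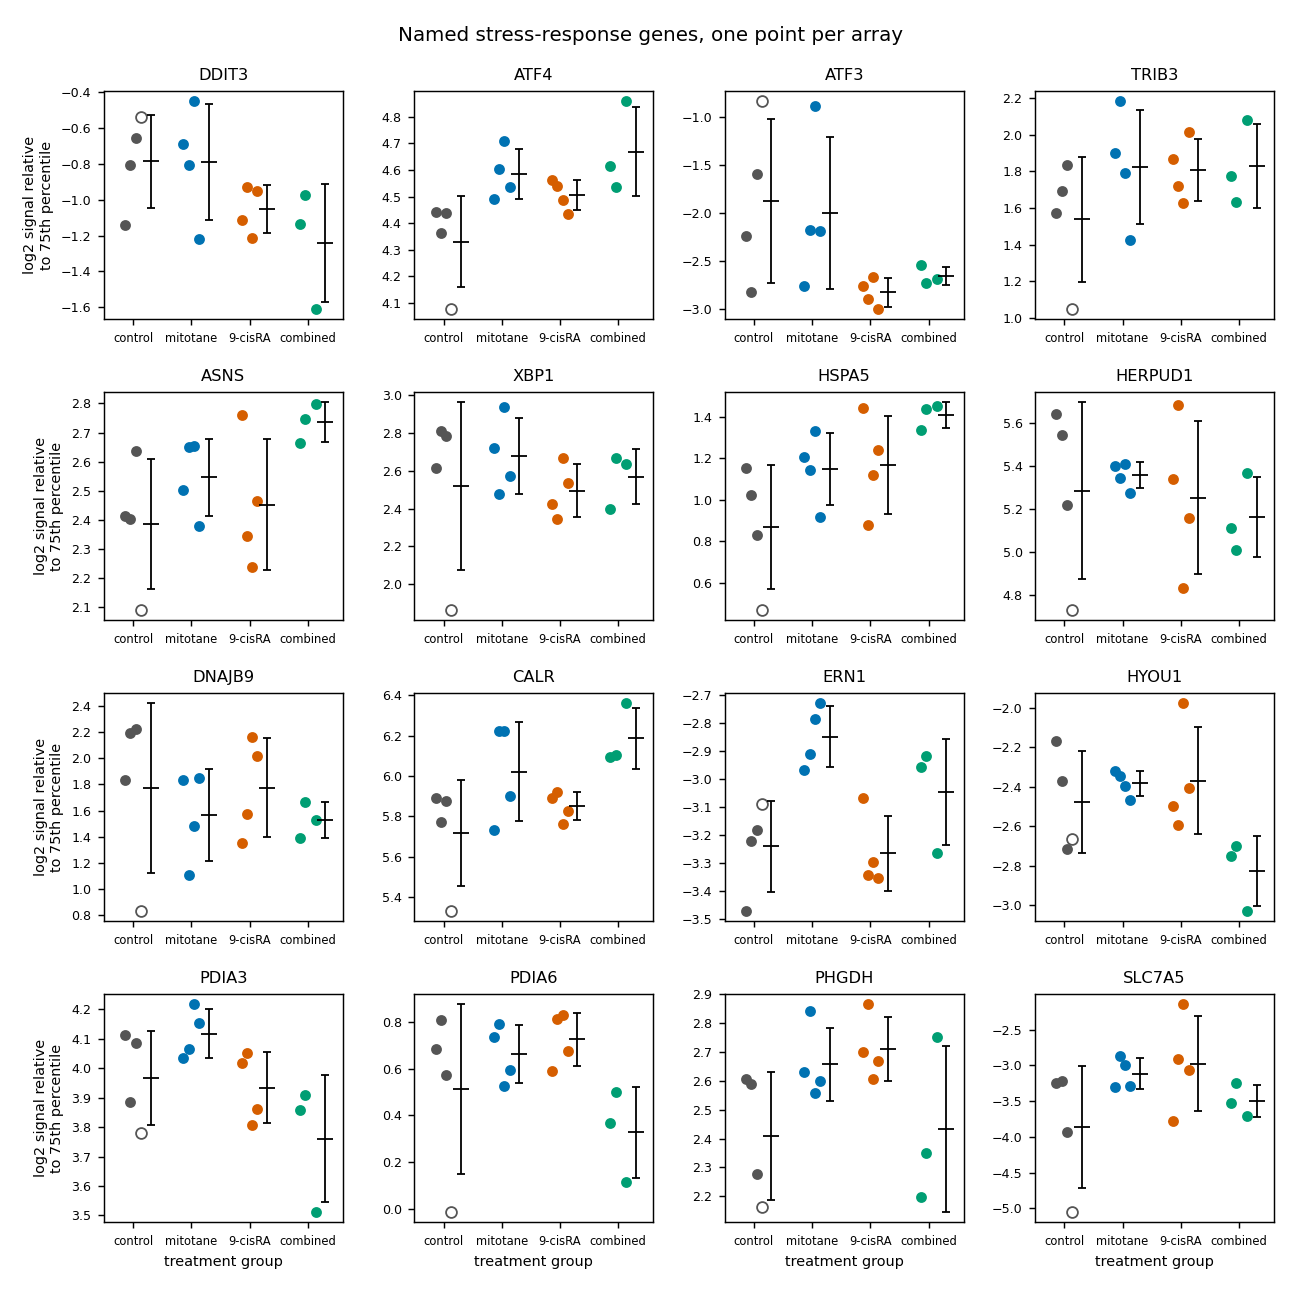
Log2 signal relative to the array's 75th percentile (y axis, a separate scale in each panel) of 16 stress-response genes in 4 treatment groups. Each point is 1 array, the open point is control replicate 4, and the bar to the right of each group is the mean ± SD (n = 4, and n = 3 for combined). The combined points of HSPA5, CALR and ASNS sit above the control points, and the 9-cisRA and combined points of ATF3 sit at the low end of a wide control range.

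Adding 1 agent to the other was read from combined minus each single agent. Against mitotane the combined group was lower in HYOU1 (log2 change -0.44 ± 0.18) and PDIA3 (-0.36 ± 0.14) at an unadjusted p under 0.05, 2 members beside 1.8% of all transcripts, and 0 members were higher (2.95% of all). Limma's adjusted p was 0.95 for both genes. The second PDIA3 probe, above background on all 15 arrays, gave -0.02 for the same difference, so the 2 probes of PDIA3 disagree. DDIT3 came next at -0.45 ± 0.21. The combined arrays lay wholly above the mitotane arrays for 2 members (HSPA5 and ASNS), beside 1322 of all 20216 transcripts. They lay wholly below for 3 (HYOU1, PDIA3 and PDIA6), beside 910. Without control replicate 4, which enters only through the shared spread, 4 members were lower (HYOU1, PDIA3, PDIA6 and DDIT3; 5.04% of all) and 0 higher (6.46%). The count was 1 without mitotane replicate 1 or 3 or combined replicate 4.

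Against 9-cisRA the combined group was lower in HYOU1 (-0.46 ± 0.18, adjusted p = 0.435) and PDIA6 (-0.40 ± 0.18, adjusted p = 0.524), 2 members beside 2.04% of all transcripts, and 0 members were higher (7.43% of all). CALR came next at 0.34 ± 0.17. The combined arrays lay wholly above the 9-cisRA arrays for 1 member (CALR), beside 2354 of all 20216 transcripts. They lay wholly below for 3 (HYOU1, PDIA6 and ERO1L), beside 952. Without control replicate 4, 2 members were higher (CALR and ASNS; 13.7% of all) and 3 lower (HYOU1, PDIA6 and ERO1L; 5.33%). The count was 0 without 9-cisRA replicate 3, and 1 without any one mitotane array, control replicate 1 or 3, combined replicate 1 or 4, or 9-cisRA replicate 2 or 4. The adjusted test called 0 of 32 members and 0% of all transcripts in both comparisons. With array weights it called 3 members in combined minus 9-cisRA (ERN1 higher, PHGDH and ERO1L lower), beside 9.91% of all transcripts. These comparisons share the combined arrays with combined minus control.

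Whether the agents added up was read from the interaction, the combined change against control less both single-agent changes. It was below 0 at an unadjusted p under 0.05 for SLC7A5 (-1.27 ± 0.56), HYOU1 (-0.55 ± 0.24), PDIA6 (-0.55 ± 0.25) and PHGDH (-0.53 ± 0.23), 4 members beside 2.33% of all transcripts, and above 0 for none (1.39% of all). The limma adjusted p was 0.965 for each, and 0 of 32 members and 0% of all transcripts passed. With control replicate 4 left out the values were -0.87, -0.49, -0.37 and -0.44, and HYOU1, PDIA6 and PHGDH kept an unadjusted p under 0.05, 3 members beside 3.88% of all transcripts, with 0 higher (3.06%). The count was 0 without control replicate 3 or mitotane replicate 2, 1 without 9-cisRA replicate 2, 3 or 4 or combined replicate 1 or 4, and 2 without mitotane replicate 1 or 3.

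Other genes of the pathways were read as whole lists, whose names rest on the same unchecked pairing with identifiers. Of 30 further ER stress genes, 28 are on the array and 27 were tested, with median log2 changes of 0.13, 0.15 and 0.11 for mitotane, 9-cisRA and combined, and 0 with an adjusted p under 0.05. At an unadjusted p under 0.05, 2 were higher and 0 lower under mitotane, and 0 passed in either direction under 9-cisRA. Under combined treatment 3 were higher and 1 lower. Of all transcripts, 5.12%, 2.16% and 11.6% were higher in that order, and 0.92%, 1.35% and 2.21% were lower. The counts became 1 higher and 1 lower, 0, and 2 higher and 4 lower without control replicate 4. With those arrays 5.37%, 2.14% and 13.2% of all transcripts were higher and 2.31%, 2.21% and 5.13% were lower. The smallest unadjusted p under combined treatment belonged to SYVN1 (NM_172230, 0.50 ± 0.18), the HRD1 ligase, P4HB (NM_000918, 0.50 ± 0.19), the founding protein disulphide isomerase, and OS9 (NM_006812, 0.43 ± 0.19), a lectin of the degradation complex. They were 0.35, 0.32 and 0.25 without control replicate 4. Chosen after their values were seen, DERL1 (NM_024295), a membrane protein of ER-associated degradation, was the 1 lower gene (-0.84 ± 0.37, and -0.87 without that array), and SELS (NM_018445) had the smallest unadjusted p without that array (-0.39). The medians of this list were 0.02, -0.02 and -0.05 once control replicate 4 was left out.

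Of 28 further ATF4 and amino acid response genes, 25 were tested, with median log2 changes of 0.01, 0.17 and -0.05, or -0.10, 0.0014 and -0.03 without control replicate 4, and 0 adjusted calls. Under combined treatment GARS, glycyl-tRNA synthetase (NM_002047, -0.57 ± 0.21), CBS, of the transsulphuration pathway (NM_000071, 0.52 ± 0.20), and DDIT4, an inhibitor of mTORC1 (NM_019058, -1.33 ± 0.64), had the smallest unadjusted p. They were -0.61, 0.37 and -0.54 without control replicate 4. At an unadjusted p under 0.05, 1 gene of this list was higher under mitotane, 0 passed under 9-cisRA, and 1 was higher and 1 lower under combined treatment. The shares of all transcripts were 5.12%, 2.16% and 11.6% higher and 0.92%, 1.35% and 2.21% lower. Without control replicate 4, 4, 2 and 5 of the 25 were lower, beside 2.31%, 2.21% and 5.13% of all transcripts. With the same arrays 0, 0 and 1 were higher, beside 5.37%, 2.14% and 13.2%. The 5 genes of eIF2alpha and its other kinases gave medians of 0.21, 0.12 and 0.11, or -0.01, 0.05 and -0.12 without that array, and 0 adjusted calls. The 12 tested adrenocortical markers gave medians of 0.21, 0.21 and 0.16, which became -0.01, -0.01 and -0.10 without control replicate 4. Beside these, 4 of the 5 tested fibroblast markers were above control under 9-cisRA and 5 of 5 under combined treatment, beside 53.9% and 58.7% of all transcripts, with medians of 1.18 and 0.93, or 1.20 and 0.92 without control replicate 4. Under mitotane 0 of 5 were above control, beside 61.5% of all. At an unadjusted p under 0.05, 2 of the 5 were higher under 9-cisRA, or 1 without control replicate 4, beside 2.16% and 2.14% of all transcripts, 0 under the other treatments, and 0 passed the adjusted test. Any RNA of mouse fibroblasts would enter these values only through cross-hybridisation, so they do not measure fibroblast content.

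Spread within groups differed by gene. The pooled within-group SD, with control replicate 4 left out, was 0.52 for ATF3, 0.48 for PPP1R15A, 0.44 for SLC7A5 and 0.42 for SDF2L1, and 0.09 for SESN2, 0.10 for ATF4 and 0.11 for HSP90B1. No member had an adjusted p under 0.05 for slide. PPP1R15A had the smallest unadjusted p, with a limma F of 9.78 and an adjusted p of 0.951. On slide 3 it read -1.45 in control, -1.13 under mitotane and -1.03 under 9-cisRA, the highest array of each group. Combined replicate 3, on the same slide, did not share this and read -0.25 in the value table beside -0.12, -0.27 and 0.0051. Of the 32 members, 1 had an unadjusted slide p under 0.05, which is 3.12% beside 2.8% of all transcripts. Without control replicate 4 there were 2, PPP1R15A and ATF3, which is 6.25% beside 6.24% of all transcripts. In that fit 0 members and 33 of all 20216 transcripts had an adjusted slide p under 0.05.

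**Figure D4:**
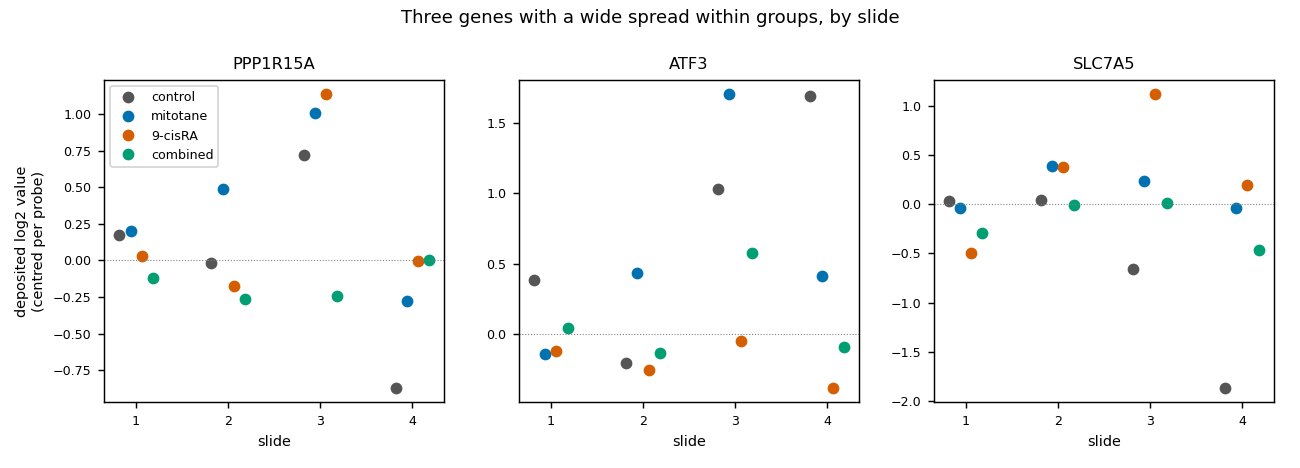
Deposited log2 values, centred per probe by the authors (y axis), of PPP1R15A, ATF3 and SLC7A5 on 4 slides (x axis), 1 point per array and colour by group, for 16 arrays including combined replicate 3. PPP1R15A is high on slide 3 in control, mitotane and 9-cisRA and at -0.25 in combined, and ATF3 is high on slide 3 in control and mitotane.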

How the data were processed

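The authors deposited 1 Agilent Feature Extraction file per array (version 11.0.1 per the submitters' processing notes, 11.0.1.1 per the file headers) for 15 arrays, with background-subtracted intensity per spot. They also deposited log2 values for 16 arrays, whose making is not stated in the sources at hand. Beside the scanner values these are centred per probe, and their exact scaling is unknown. From the intensities, log2 of the processed signal was scaled to the 75th percentile of the 43118 non-control spots of its array. Outlier spots were dropped, spots of a probe averaged, and the brightest probe kept per identifier. A transcript was tested if 1 group or more had all of its spots well above background, all 4 groups in one fit (limma 3.58.1, lmFit and eBayes, R 4.3.3, data.table package version 1.17.8), two-sided, with Benjamini-Hochberg adjustment over 20216 transcripts and a threshold of 0.05. Intervals are 95% from 14.05 degrees of freedom. Precision is limited by the number of arrays.

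The symbols of the 33 members came with their RefSeq identifiers. The 96 identifiers of the further lists were paired with symbols from general knowledge, and 89 are on the array. Members and lists were chosen with earlier results of these data known. All members are described by role, array by array for 9 branch readouts and for the 3 members with the smallest unadjusted p in each comparison between groups. At most 3 genes per further pathway list are named by smallest unadjusted p. DERL1 and SELS were named beyond that rule after their values were seen, and cell type markers are named by whether they passed background. With control replicate 4 left out, same-slide arrays of different groups had a median correlation of their deviations of 0.02 (18 pairs, -0.21 to 0.37). Pairs of different slide and group had -0.01 (55 pairs, -0.35 to 0.40). Slide was therefore no term of the fit, which itself kept that array. The fit was tested on simulated data, and plots used matplotlib 3.10.9 (Python 3.11.15). Sequences and coordinates of these human transcripts are not used here.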

Additional observations from a re-analysis of the deposited data

Results flagged for a closer look

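In each group of 4 arrays, the highest or lowest array was set against the others by Dixon's test, for 32 members and the 3 groups of that size. Of these 96 sets 6 passed the critical value, and chance gives about 1 in 20. No share over all transcripts is at hand for this test, so the 6 are no result about the members. Control replicate 4 was the distant array in 4 of the 6, and it was the highest or lowest of 15 arrays for 72.2% of all tested transcripts. Control replicate 4 read 0.687 for SEL1L, where the other controls read 1.29 to 1.39, and -0.0162 for ATF6 against 0.865 to 0.931. On the same array DNAJC3 read 3.46 against 1.57 to 1.87, and EDEM1 read -4.59 against -3.26 to -3.15. The other two were PPP1R15A on 9-cisRA replicate 3, at -1.03 against -2.36 to -2.15, and EIF2AK3 on mitotane replicate 2, at -2.27 against -1.93 to -1.88. All are log2 signals relative to the array's 75th percentile.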

How the results depend on the processing

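The 0 adjusted calls among the members held in each comparison under quantile normalisation, normexp with quantile normalisation (on the median signal, a choice made after seeing the files), a percentile over probes detected on all arrays, no filter on dim probes, only the compared groups, the replicate block, the value table and each array left out. Array weights gave 13 calls for combined minus control and 3 for combined minus 9-cisRA, beside 28.6% and 9.91% of all transcripts. Medians over the members moved by less than the 0.122 SD of the array median. That SD is larger than each of their medians against control, so this does not show them to be steady. The 9-cisRA median went from 0.04 to -0.03 without control replicate 4.

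Counts at an unadjusted p under 0.05 were unsteady, and the cause was not tested. The share of all transcripts at this threshold is given only for the main fit and the fit without control replicate 4. Counts of members under any other setting, here and in the results above, therefore show only unsteadiness and are no result about the members. For mitotane (1) they were 5 with array weights, 2 with normexp, and 1 to 4 with an array left out. For 9-cisRA (2) they were 1 with only the compared groups, and 0 to 5 with an array left out. For combined (5) they were 17 with array weights, 3 without the filter, 1 with only the compared groups, 2 with quantile normalisation, 3 with the replicate block, and 1 to 8 with an array left out. For combined minus mitotane (2) they were 6 with array weights, 4 with only the compared groups, and 1 to 4 with an array left out. For combined minus 9-cisRA (2) they were 7 with array weights, 1 without the filter, 4 with only the compared groups, and 0 to 5 with an array left out. For the interaction (4) they were 2 with array weights and 0 to 4 with an array left out. The replicate block changed no other count of members by over 1.5 times and no adjusted call. The replicate number is the slide.

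The following alternatives were chosen after seeing the data. Leaving out the control and combined arrays of slide 4 gave counts of 2 (mitotane), 0 (9-cisRA), 3 (combined), 4 (combined minus 9-cisRA) and 1 (interaction). The value table less the control array of slide 4 gave 2, 0, 11, 6 and 1 in that order, and 4 for combined minus mitotane. The replicate block less that array gave 3 for mitotane, 1 for 9-cisRA, 6 for combined minus 9-cisRA and 2 for the interaction.

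Log2 changes were recomputed under every alternative for the 9 branch readouts against control and for the 3 members with the smallest unadjusted p in each comparison, and those that turned sign follow. Other members turned sign without control replicate 4, as given with their values. For mitotane with array weights they were 0.59 (ATF3), 0.044 (DDIT3), -0.16 (HERPUD1) and -0.10 (XBP1). Without the slide 4 control and combined arrays they were 0.22, 0.077, -0.11 and -0.059, with the value table less control 4 they were 0.20, 0.057, -0.13 and -0.079, and with the block less control 4 they were 0.29, 0.16, -0.12 and -0.054. With an array left out the ranges were -0.50 to 0.22, -0.12 to 0.14, -0.11 to 0.19 and -0.059 to 0.26. For 9-cisRA, HERPUD1 was 0.052 with quantile and 0.031 with normexp normalisation, XBP1 0.000737 with the value table, and DNAJB9 -0.0063 with the detected-probe percentile and -0.30 with array weights. ASNS and DNAJB9 were -0.032 and -0.31 without the slide 4 control and combined arrays, -0.029 and -0.31 with the value table less control 4, and -0.021 and -0.36 with the block less control 4. With an array left out, ASNS ran from -0.036 to 0.15, DNAJB9 from -0.31 to 0.16, HERPUD1 from -0.22 to 0.11 and XBP1 from -0.24 to 0.073. For combined, ATF3 was 0.027 with array weights. XBP1 was -0.000495 with quantile normalisation, -0.28 with array weights, -0.024 with the value table, -0.20 without both slide 4 arrays, -0.27 with the value table less control 4, -0.11 with the block less control 4, and -0.17 to 0.15 with an array left out.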
